A study of Mus musculus with 16 samples.

Results

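The genes of calcium/calmodulin-dependent protein kinase II (CaMKII) and of its small endogenous inhibitors were followed in bulk RNA sequencing of the mouse hippocampus. They are 6 of the 24972 genes measured, and their rows were found by symbol: the kinase subunits Camk2a, Camk2b, Camk2d and Camk2g, and the inhibitors Camk2n1 and Camk2n2. CaMKII is a multi-subunit kinase that is switched on by calcium-bound calmodulin, and its subunits then phosphorylate one another so that activity can outlast the calcium signal. It is among the most abundant proteins of excitatory synapses, where the alpha and beta subunits predominate and are needed for long-term potentiation and for learning. Camk2n1 and Camk2n2 encode small proteins that bind the active kinase and block it.

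The 16 libraries came from subregions CA1, CA3 and dentate gyrus (DG), dissected from 3 trained and 3 untrained mice. All of the mice were adults of 3 to 4 months with the genotype ArcCreERT2::eYFPflx on a C57BL/6 background, which means that the controls also carried the tamoxifen-inducible Cre under the promoter of the activity-induced gene Arc and the floxed eYFP reporter. Trained mice learned active place avoidance, in which a sector of a rotating arena delivers a shock. Untrained mice explored the same rotating arena with the shock off. Tissue was collected after a memory retention test, and the pieces of each subregion were pooled by animal. There were 3 trained and 3 untrained libraries of CA1, and 3 trained and 2 untrained libraries each of CA3 and DG.

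The deposited value is a normalized estimated count per gene, which sums to between 7607326 and 7984931 per library. The number of reads behind it is unknown, so no counting interval is given. Libraries did not all match their labels. The methods place both sexes in each training group, yet Xist, the transcript of the inactive X chromosome, was between 7601 and 19592 in all 9 trained libraries and between 25.5 and 52.4 in 6 of the 7 untrained ones. The other untrained library, CA3 replicate 1, held Xist at 10587, whereas the CA1 and DG libraries of the same animal held 26.1 and 25.5. Some libraries held transcripts of both sexes. The Y-linked Ddx3y was between 448.4 and 552.8 in the 6 libraries with low Xist, and it was 201.4 in untrained CA3 replicate 1, 255.2 in trained DG replicate 3 and 1.7 to 100.6 in the other 8 trained libraries. Training and sex-linked expression therefore cannot be told apart in nearly all of these libraries. The subregion labels were also not separated by the summed markers of CA1 pyramidal, CA3 pyramidal or DG granule cells. Prox1, a transcription factor that defines DG granule cells, ranged from 3052 to 3861 in CA1, from 2690 to 4786 in CA3 and from 3292 to 4183 in DG. The number of genes listed at 0 also split the libraries. There were 7567 to 9759 such genes in 7 libraries, namely the 3 of trained CA1, the 2 of untrained DG and the first pair of trained CA3, against 3124 to 5944 in the other 9.

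The coding sequences of the inhibitors are shown because the results below turn on them and because both are short and related. In GENCODE M21 on GRCm38, Camk2n1 has 1 transcript and its coding part spans chr4:138455186-138456785 on the plus strand. Camk2n2 also has 1 transcript, and its coding part spans chr16:20620176-20621194 on the minus strand. Both are written 5′ to 3′ without the stop codon, and capitals mark the longest run of bases that they share.
Camk2n1: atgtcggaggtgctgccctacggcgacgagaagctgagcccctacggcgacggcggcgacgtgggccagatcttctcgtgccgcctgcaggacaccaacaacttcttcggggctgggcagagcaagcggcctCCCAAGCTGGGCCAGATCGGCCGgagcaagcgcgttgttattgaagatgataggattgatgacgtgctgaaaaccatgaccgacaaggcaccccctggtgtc
Camk2n2: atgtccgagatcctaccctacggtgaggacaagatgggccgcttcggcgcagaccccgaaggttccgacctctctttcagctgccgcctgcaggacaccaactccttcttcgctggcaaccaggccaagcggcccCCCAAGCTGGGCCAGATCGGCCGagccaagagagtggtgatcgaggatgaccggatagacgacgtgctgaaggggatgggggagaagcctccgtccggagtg
They encode 78 and 79 amino acids, and 167 of 237 aligned columns (70.5%) were identical. The shared run is 23 bases long, and no stretch of 31 bases is common to the full transcripts of the inhibitors, so reads of that length from one inhibitor do not match the other exactly.

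The subunit genes lie on 4 chromosomes of GRCm38. Camk2a occupies chr18:60925618-60988152 on the plus strand with 7 annotated transcripts, and Camk2b occupies chr11:5969644-6066362 on the minus strand with 15. Camk2d (chr3:126596302-126846326, plus strand) has 28 transcripts and Camk2g (chr14:20734875-20794088, minus strand) has 17. Of all stretches of 31 bases, 6 are shared by Camk2a and Camk2b and 2 by Camk2a and Camk2d, and the other pairs of members share none.

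To compare members with one another, each value was divided by the length of the gene's merged exons. On this scale Camk2a, the alpha subunit of forebrain excitatory neurons, was highest, with a median over the 16 libraries of 6104 per kilobase (range 5452 to 6682). Camk2b, the beta subunit that also binds actin, followed at 1428 (1302 to 1556). The inhibitor Camk2n1 came next at a median of 1143 (997 to 1390), overlapping the range of Camk2b. The gamma subunit gene Camk2g stood at 219.8 (194.0 to 252.5) and Camk2n2 at 101.5 (71.6 to 152.6). The delta subunit gene Camk2d, known best from the heart, was lowest at 14.1 (11.7 to 20.0).

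**Figure D1:**
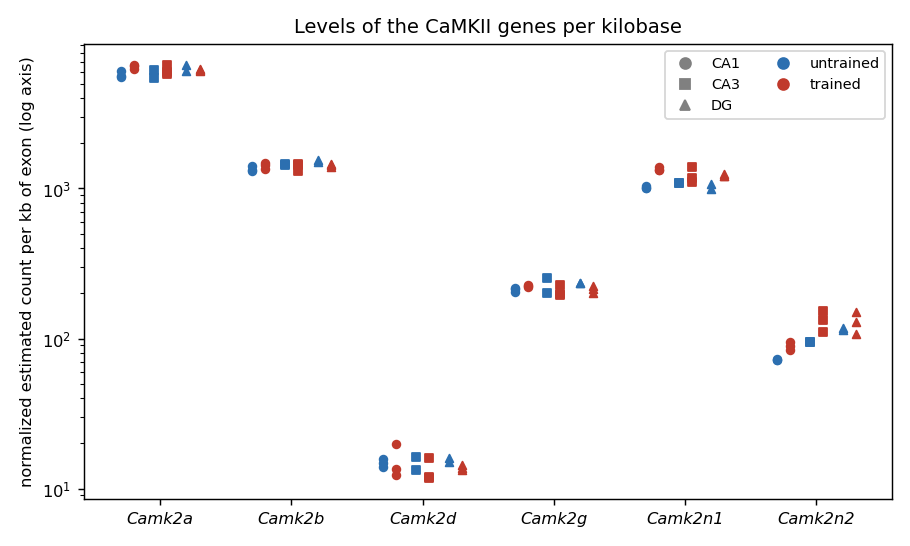
Level of each CaMKII gene per kilobase of merged exon (log axis) in the 16 libraries. Points are libraries, shapes are subregions and colours are training groups. Camk2a lies between 5452 and 6682 and Camk2d between 11.7 and 20.0.

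Among the subunits, Camk2a made up a median of 78.7% of the summed level per kilobase (76.9% to 80.0%), Camk2b 18.3% (17.1% to 20.1%), Camk2g 2.75% (2.54% to 3.22%) and Camk2d 0.187% (0.147% to 0.254%). The Camk2a share was 79.3% to 80.0% in trained and 78.0% to 78.7% in untrained CA1 libraries and 78.6% to 79.8% against 76.9% to 78.0% in CA3, without overlap, and it overlapped in DG. The levels and shares depend on the length used, and so does the overlap of neighbouring ranges. With the longest transcript as the length, Camk2a made up 71.9%, Camk2b 24.6% and Camk2d 0.462%. The median levels were then 9168 per kilobase for Camk2a, 3160 for Camk2b, 380.0 for Camk2g and 57.4 for Camk2d, with the order of the 6 medians unchanged.

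Training was compared first over all subregions, with the subregion as a term. Libraries entered this fit as independent, although animals gave several each. Both inhibitors were higher in trained mice, and no subunit passed the test. This makes 2 of 6 members called at an adjusted p under 0.05, beside 10.3% of all 14673 genes tested. The median log2 fold change of the 6 members was 0.03, and that of all genes was -0.01.

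Camk2n1 showed the most regular difference. In CA1 its value was 4487, 4613 and 4504 in the untrained libraries and 5942, 5934 and 6143 in the trained ones. In CA3 it was 4833 and 4839 without training and 6177, 5225 and 4938 with training. In DG it was 4430 and 4725 without training and 5368, 5544 and 5402 with training. Each of the 9 trained libraries thus lay above each of the 7 untrained ones, with trained CA3 replicate 3 nearest to the untrained range. The mean of the trained libraries was 5630 ± 436 (SD, n = 9), and that of the untrained ones was 4633 ± 168 (SD, n = 7). Camk2n1 rose by 0.28 on the log2 scale (SE 0.04, 1.22-fold, adjusted p = 0.000395 by limma), and it ranked 39th of 14673 genes by p.

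Camk2n2 was measured at much lower values. In CA1 it was 93.2, 94.9 and 92.4 in untrained and 114.6, 123.2 and 108.9 in trained libraries. In CA3 it was 121.7 and 121.8 in untrained and 143.6, 170.9 and 197.0 in trained libraries. In DG it was 146.3 and 151.4 in untrained and 167.0, 194.0 and 138.8 in trained libraries. The groups were apart in CA1 and CA3 and overlapped in DG, where trained replicate 3 was the lowest library. Over all subregions Camk2n2 rose by 0.30 (SE 0.08, 1.23-fold, adjusted p = 0.0223 by limma), from 117.4 ± 25.0 (SD, n = 7) to 150.9 ± 33.0 (SD, n = 9). This call was lost when trained animal 2 (adjusted p = 0.156), untrained animal 1 (0.126) or untrained animal 2 (0.0829) was left out.

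**Figure D2:**
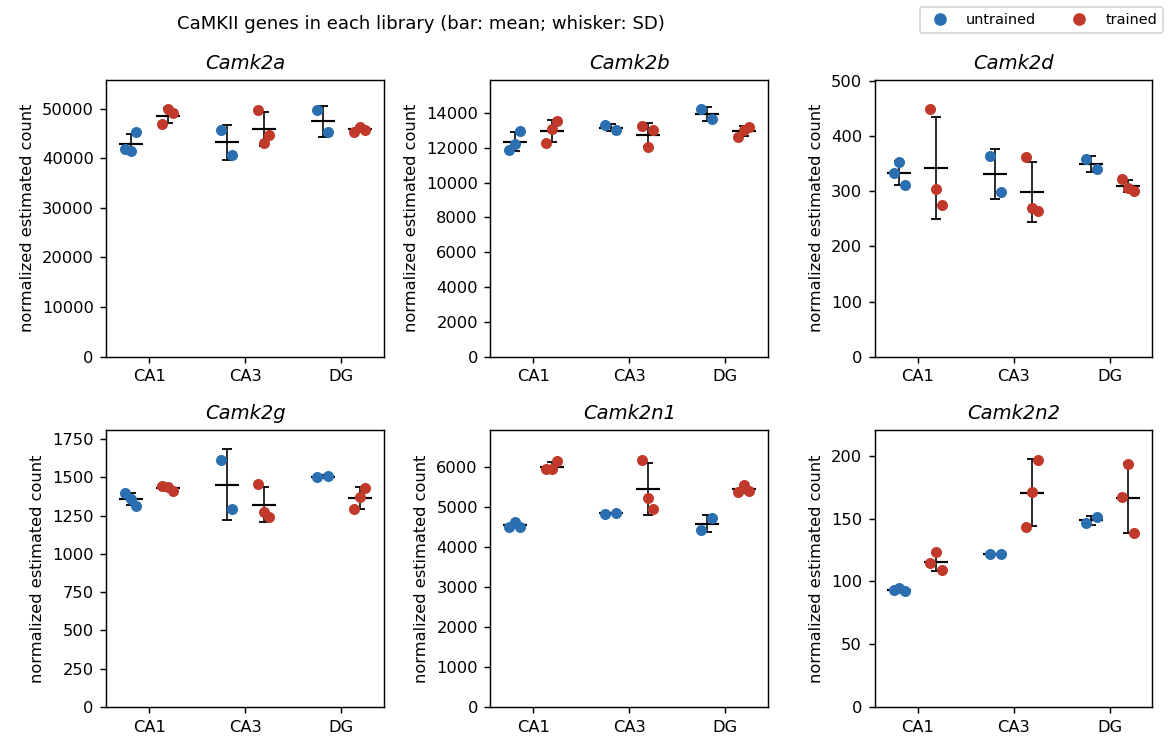
Normalized estimated count of each CaMKII gene (vertical axis from 0) in each library by subregion, with untrained libraries in blue and trained ones in red. Bars are means and whiskers are SD. For Camk2n1 the 9 trained libraries (4938 to 6177) lie above the 7 untrained ones (4430 to 4839).

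None of the subunits passed the test over all subregions. Camk2a averaged 46791 ± 2355 (SD, n = 9) with training and 44303 ± 3144 (SD, n = 7) without it, a difference of 0.08 on the log2 scale (95% interval 0.00 to 0.16, adjusted p = 0.201 by limma). For Camk2b the difference was -0.02 (-0.09 to 0.05, adjusted p = 0.777), for Camk2d -0.10 (-0.28 to 0.08, adjusted p = 0.522) and for Camk2g -0.05 (-0.16 to 0.05, adjusted p = 0.534). Trained and untrained libraries overlapped for all 4 subunits. Camk2d had its highest value, 448.9, in trained CA1 replicate 1, and without that animal Camk2d was lower in trained libraries (-0.23, adjusted p = 0.0314).

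Values that moved with training are given beside these results. When a score of sex-linked transcripts was added as a term, the difference of Camk2n1 was 0.18 (adjusted p = 0.53), that of Camk2n2 was 0.26 (adjusted p = 0.694), and limma called none of the genes tested, with 1702 at an unadjusted p under 0.05. In the same fit the subunits differed by 0.0037 (Camk2a), 0.0012 (Camk2b), -0.31 (Camk2d) and -0.22 (Camk2g), with adjusted p between 0.492 and 0.998. The single untrained library with high Xist, CA3 replicate 1, had Camk2n1 at 4833 against 4839 in the other untrained CA3 library, and without it the overall difference of Camk2n1 was 0.30 (adjusted p = 0.000692). Camk2n2 lost its call without that library (0.28, adjusted p = 0.0603). With a term for libraries that list many genes at 0, Camk2n1 differed by 0.26 (adjusted p = 0.000315) and Camk2n2 by 0.30 (adjusted p = 0.029).

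In CA1, 2 of 6 members were called, Camk2n1 and Camk2a, beside 5.23% of the 13588 genes tested. Camk2n1 rose from 4535 ± 68.4 to 6006 ± 118 (SD, n = 3 each), which is 0.41 on the log2 scale (SE 0.04, 1.32-fold, adjusted p = 1.78e-05 by limma) and rank 9 by p. Camk2a was 41908, 41543 and 45241 in untrained and 46853, 49885 and 49113 in trained libraries, so that the groups did not overlap. It rose by 0.18 (SE 0.04, 1.13-fold, adjusted p = 0.00491 by limma), and the call was lost without animal 2 of the trained group (0.16, adjusted p = 0.0641) or animal 1 of the untrained group (0.16, adjusted p = 0.0688). Camk2n2 (0.30, adjusted p = 0.274) and Camk2g (0.08, adjusted p = 0.507) did not pass, although each trained library lay above each untrained one. In all, 4 of 6 members did not overlap, where 24.0% of the genes tested did not. Camk2b differed by 0.07 (adjusted p = 0.416) and Camk2d by 0.01 (adjusted p = 0.987).

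The summed levels of 5 of 12 lists of cell type markers also did not overlap between the groups in CA1, where 24.0% of the genes tested did not. The 4 markers of excitatory neurons summed to between 24205 and 24705 in trained and between 19229 and 20158 in untrained CA1 libraries. The 5 astrocyte markers summed to between 9548 and 9908 in trained and between 10282 and 10705 in untrained libraries. The 5 markers of CA1 pyramidal cells went the other way from the excitatory markers, with 1599 to 1986 in trained and 3222 to 5210 in untrained libraries, while the 5 markers of CA3 pyramidal cells summed to 943 to 1044 and 627 to 656. The 3 endothelial markers summed to 521 to 560 in trained and 476 to 479 in untrained libraries. No marker of these lists was at 0 in all libraries. Their part in the differences of Camk2n1 and Camk2a was not tested, and in bulk tissue fewer cells of a type and less RNA per cell cannot be told apart. All 3 trained CA1 libraries also had high Xist and many genes at 0 and no untrained CA1 library had either, so in CA1 these features cannot be told apart from training.

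In CA3 none of the 6 members was called by limma, beside 0.852% of the 13848 genes tested. Of the members 1, Camk2n2, had an unadjusted p under 0.05, beside 15.8% of all genes. Camk2n2 differed by 0.47 (95% interval 0.15 to 0.78, adjusted p = 0.153) and Camk2n1 by 0.16 (-0.04 to 0.37, adjusted p = 0.428). With 1 animal left out, the Camk2n2 difference lay between 0.36 and 0.58. The Camk2n1 difference was 0.07 without trained animal 1 and 0.23 without trained animal 3. Both had each trained library above each untrained one, which makes 2 of 6 members not overlapping, where 33.9% of the genes tested did not overlap. Camk2a differed by 0.09, Camk2b by -0.05, Camk2d by -0.16 and Camk2g by -0.13, with adjusted p between 0.593 and 0.796. The 95% interval of Camk2d ran from -0.49 to 0.18. In CA3 also, 5 of 12 marker lists did not overlap between the groups. The excitatory neuron markers summed to between 24967 and 28517 in trained and between 19702 and 23378 in untrained libraries, and the CA3 pyramidal markers to 1115 to 1364 and 694 to 984. Lower in trained libraries were the markers of astrocytes (8688 to 9640 against 9862 to 10891), of CA2 pyramidal cells (1374 to 1458 against 1476 to 1916) and of choroid plexus (74.8 to 90.9 against 621 to 906). Their part in the values of the members was not tested.

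In DG, 1 of 6 members was called, Camk2n1, beside 3.39% of the 13935 genes tested. It rose from 4577 ± 208 (SD, n = 2) to 5438 ± 93.1 (SD, n = 3), which is 0.25 on the log2 scale (SE 0.06, 1.19-fold, adjusted p = 0.0241 by limma). The call was lost without any 1 of 4 animals: trained animal 1 (0.101), 2 (0.118) or 3 (0.0988) or untrained animal 1 (0.0779), given as adjusted p, while the difference stayed between 0.20 and 0.30. In DG, 6 of 12 marker lists did not overlap between the groups, where 35.6% of the genes tested did not. Lower in trained libraries were the markers of DG granule cells (8680 to 9146 against 10899 to 11136), CA2 pyramidal cells (1232 to 1359 against 1514 to 1656), oligodendrocytes (13156 to 14135 against 14851 to 19172) and endothelium (253 to 267 against 411 to 504). Higher were those of CA3 pyramidal cells (984 to 1214 against 903 to 924) and interneurons (3539 to 3713 against 3186 to 3457), while the excitatory neuron markers overlapped, with 24205 to 26824 and 23321 to 24285. The part of these markers in the rise of Camk2n1 was not tested. All 3 trained DG libraries had high Xist and fewer genes at 0, and both untrained ones had low Xist and many genes at 0, so in DG too these features cannot be told apart from training.

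In DG, 3 of the 4 subunits lay lower in trained libraries. Camk2b was 14200 and 13670 in untrained and 12621, 13035 and 13200 in trained libraries. Camk2g was 1502 and 1511 in untrained and 1292, 1371 and 1433 in trained libraries, and Camk2d was 359.7 and 340.1 against 322.8, 306.4 and 301.0. For these 3 subunits each trained library lay below each untrained one, and with Camk2n1 this makes 4 of 6 members not overlapping, where 35.6% of the genes tested did not. None of the 3 passed the test: Camk2b differed by -0.11 (adjusted p = 0.237), Camk2g by -0.14 (0.276) and Camk2d by -0.17 (0.38). Camk2a differed by -0.05 (adjusted p = 0.599) and Camk2n2 by 0.15 (adjusted p = 0.651), with overlapping groups. The Camk2n2 difference was 0.03 without trained animal 2 and 0.27 without trained animal 3.

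**Figure D3:**
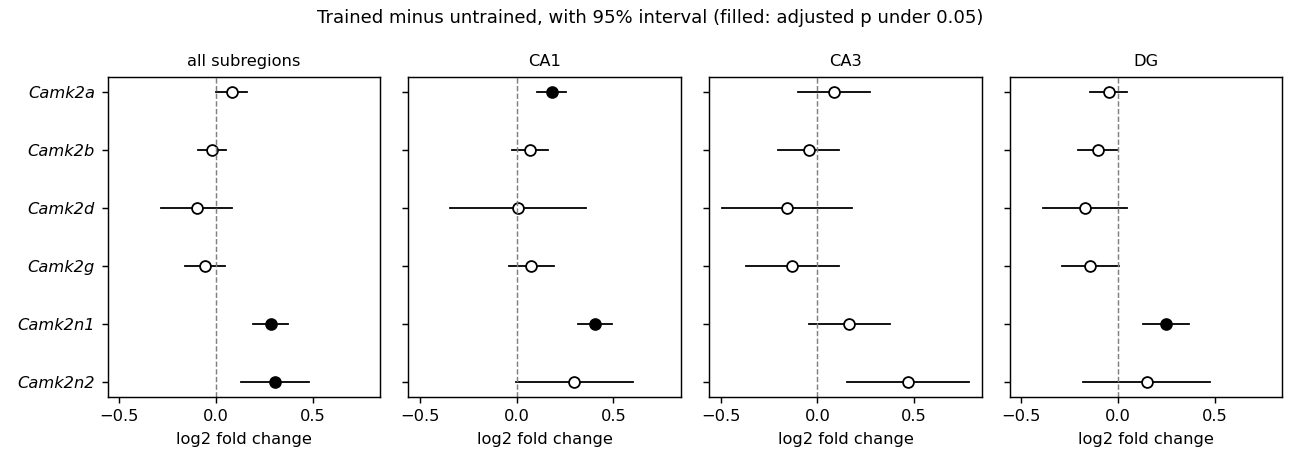
Log2 fold change of each CaMKII gene, trained minus untrained (horizontal axis), with its 95% interval, over all subregions and in each one. Filled points have an adjusted p under 0.05. Camk2n1 lies right of 0 in all 4 panels, from 0.16 in CA3 to 0.41 in CA1.

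Whether the training difference itself varied between subregions was tested as an interaction, and none of the 6 members was called in any pair of subregions. The share of all 14673 genes called was 0.0273% for CA1 against CA3, 2.75% for CA1 against DG and 0.164% for CA3 against DG. In the same order, 1, 2 and 0 of the 6 members had an unadjusted p under 0.05, beside 6.71%, 17.8% and 11.7% of all genes. The difference of Camk2n1 in CA1 exceeded that in CA3 by 0.24 (95% interval 0.05 to 0.43, adjusted p = 0.578 by limma) and that in DG by 0.16 (-0.03 to 0.34, adjusted p = 0.381). For Camk2a, the difference in CA1 exceeded that in DG by 0.23 (0.07 to 0.40, adjusted p = 0.118). Of the members, this one came nearest to the threshold, and it was called without untrained animal 3 (0.34, adjusted p = 0.0438). The called rises of Camk2a in CA1 and of Camk2n1 in CA1 and DG are thus not shown to be particular to these subregions. All trained CA1 and all untrained DG libraries listed many genes at 0, and no untrained CA1 or trained DG library did. Any difference of training effects between CA1 and DG therefore cannot be told apart from this split.

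Ratios between members are free of the scale of each library. The summed inhibitors stood to the summed subunits, per kilobase, at a log2 ratio of -2.55 to -2.46 in trained and -2.83 to -2.68 in untrained CA1 libraries. In DG the ratio was -2.56 to -2.49 in trained and -2.93 to -2.73 in untrained libraries. In CA3 it was -2.59 to -2.48 and -2.73 to -2.58, and there the groups overlapped. The ratio of Camk2n1 to Camk2a, the most abundant subunit gene, showed the same order: it was apart in CA1 (-2.32 to -2.23 trained, -2.58 to -2.42 untrained) and in DG (-2.34 to -2.32 trained, -2.74 to -2.51 untrained), and it overlapped in CA3. The ratio of Camk2a to Camk2b was 2.15 to 2.22 in trained and 2.06 to 2.11 in untrained CA1 libraries, and it overlapped in CA3 and DG. These ratios are descriptions without a test.

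**Figure D4:**
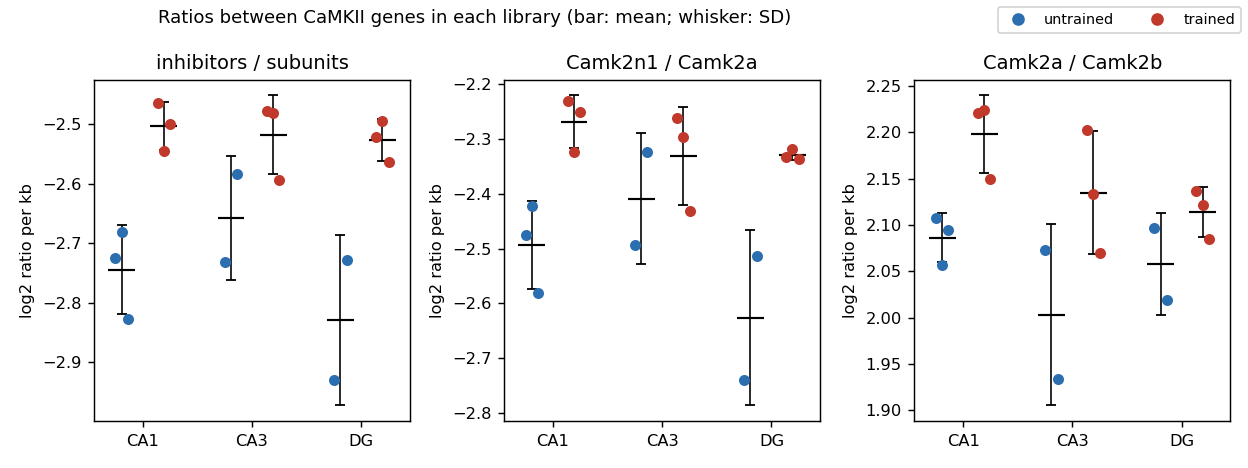
Log2 ratios per kilobase of summed inhibitors to summed subunits, Camk2n1 to Camk2a and Camk2a to Camk2b in each library (axes do not start at 0). Bars are means and whiskers are SD. The first ratio is -2.55 to -2.46 in trained and -2.83 to -2.68 in untrained CA1 libraries.

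Subregions were compared with the animal as a block. The subunits and Camk2n1 differed little among CA1, CA3 and DG: their log2 differences lay between -0.04 and 0.12 for CA1 against CA3, between -0.07 and 0.06 for CA1 against DG and between -0.08 and 0.03 for CA3 against DG. None of these 5 genes was called, and all of their 95% intervals lay between -0.27 and 0.29. Camk2n2 alone was called, in CA1 against DG, which is 1 of 6 members beside 1.80% of all genes. It was 104.5 ± 13.0 (SD, n = 6) in CA1 and 159.5 ± 21.9 (SD, n = 5) in DG, with each CA1 library below each DG library, a difference of -0.56 (SE 0.11, adjusted p = 0.0136 by limma). This call was lost without trained animal 1 (-0.56, adjusted p = 0.0562) or trained animal 2 (-0.54, adjusted p = 0.098).

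Against CA3, where its mean was 151.0 ± 32.7 (SD, n = 5), Camk2n2 in CA1 differed by -0.49 (adjusted p = 0.0569 by limma, 0.0459 without the block), beside 0.334% of all genes called. The highest CA1 library (123.2) overlapped the lowest CA3 libraries (121.7 and 121.8). In CA3 against DG, Camk2n2 differed by -0.07 (-0.31 to 0.17), and limma called 0% of all genes there, with 660 genes at an unadjusted p under 0.05. The log2 ratio of Camk2n1 to Camk2n2 per kilobase was accordingly 3.81 to 4.03 in CA1, 2.86 to 3.64 in CA3 and 3.05 to 3.50 in DG. The 5 markers of CA1 pyramidal cells summed to 1599 to 5210 in CA1, 922 to 1613 in CA3 and 1343 to 2106 in DG, and those of DG granule cells to 8351 to 10256 in CA1 and 8680 to 11136 in DG. Those of CA3 pyramidal cells summed to 627 to 1044 in CA1, 694 to 1364 in CA3 and 903 to 1214 in DG. The dissected pieces were therefore not apart by the summed markers of granule cells or of CA1 or CA3 pyramidal cells. The part of mixed tissue in the near-equal subunit levels and in the difference of Camk2n2 was not tested.

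Across the 16 libraries, which share animals, training groups and subregions, the members did not move as a single block. Pearson's r of log2 values was 0.61 for Camk2a with Camk2b, 0.60 for Camk2d with Camk2g and 0.57 for Camk2a with Camk2n1, but 0.22 for Camk2n1 with Camk2n2. Among 10767 genes with a mean value of at least 50, the patterns most like that of Camk2n1 were those of Crtc1 (r = 0.92), Ttyh3 (0.91) and Dok6 (0.88). For Camk2n2 they were Usp22 (0.94), Mpp3 (0.93) and Tmem59l (0.93). The most alike were Zswim8 (0.90), Zc3h7b (0.86) and Agap2 (0.85) for Camk2a, and Phyhip (0.85), Ptk2b (0.81) and Napa (0.81) for Camk2b. For the minor subunits they were Magi1 (0.86), Hlf (0.85) and Glcci1 (0.85) for Camk2g and Ptma (0.80), Ripk2 (0.78) and Msn (0.77) for Camk2d. Each r describes these 16 libraries and has no test.

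The genes around the kinase were read from 4 lists. Of their 42 genes, 7 were called over all subregions, beside 10.3% of all genes tested, 6 in CA1 (5.23% of all genes) and 4 in DG (3.39%). At an unadjusted p under 0.05 there were 16 of 42 over all subregions, beside 25.5% of all genes. Of 6 calmodulins and calmodulin buffers, 1 rose over all subregions: Nrgn, which encodes neurogranin, a postsynaptic protein that binds calmodulin when calcium is low (0.33, adjusted p = 0.0393 by limma). In CA1, Nrgn was 3303 to 4088 in untrained and 4678 to 5533 in trained libraries, a rise of 0.50 (adjusted p = 0.0157). In DG, Pcp4, whose product speeds calcium exchange by calmodulin, fell by 0.38 on the log2 scale (adjusted p = 0.0293), from 840.4 and 868.8 to between 619.2 and 732.0. Pcp4 is also 1 of the 4 markers of CA2 pyramidal cells whose sum was lower in trained DG libraries. The list's median log2 fold change over all subregions was 0.06.

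Of 11 other calmodulin-dependent kinases, 1 rose and 1 fell over all subregions, beside 10.3% of all genes called in either direction. Camk1d, a CaM kinase I gene, rose by 0.22 (adjusted p = 0.0174 by limma), and Dapk1, a death-associated kinase that competes with CaMKII for the NMDA receptor, fell by 0.18 on the log2 scale (adjusted p = 0.00355). In CA1 Camk1d rose from 1959 to 2252 in untrained libraries to 2703 to 2847 in trained ones (0.36, adjusted p = 0.000754), and its difference in CA1 exceeded that in DG by 0.41 (adjusted p = 0.0339 for the interaction). Trained CA1 and untrained DG libraries were those with many genes at 0, so this interaction cannot be told apart from that split. In DG only Camkv, a kinase-like gene of the CaM kinase family, rose in this list (0.24, adjusted p = 0.0419).

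Of 12 genes of phosphatases that act against CaMKII and of their regulators, 2 fell over all subregions and none rose. Beside these, 10.3% of all genes were called in either direction. Only 1 of the 2 that fell is itself a phosphatase. Ppp3ca, the catalytic alpha subunit of calcineurin, which is also driven by calmodulin, was 20333 to 21308 in untrained and 17732 to 19463 in trained CA1 libraries, and 21271 to 22361 and 18449 to 18992 in DG. It fell by 0.20 on the log2 scale over all subregions (adjusted p = 0.000395 by limma), by 0.17 in CA1 (adjusted p = 0.0144) and by 0.22 in DG (adjusted p = 0.0173). The other, Ppp1r1a, encodes an inhibitor of protein phosphatase 1, and it fell by 0.22 on the log2 scale over all subregions (adjusted p = 0.0317). In CA1, Ppp1r9b, the scaffold spinophilin, rose by 0.19 (adjusted p = 0.0172).

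Of 13 postsynaptic partners and substrates, 1 rose and 1 fell over all subregions, beside 10.3% of all genes called in either direction. Actn2, an actinin that links the kinase to actin, rose by 0.36 (adjusted p = 0.01 by limma), and Grin2a, an NMDA receptor subunit, fell by 0.11 on the log2 scale (adjusted p = 0.0331). In CA1, Cacna1c, the pore of an L-type calcium channel, rose from 2094 ± 96.5 to 2687 ± 11.3 (SD, n = 3 each; 0.36, adjusted p = 0.000256), and Actn2 rose by 0.54 (adjusted p = 0.0422). The Cacna1c difference in CA1 exceeded that in DG by 0.46 (adjusted p = 0.0137 for the interaction by limma). As for Camk1d, this interaction cannot be told apart from the split of libraries by genes at 0. In DG, Tiam1, a Rac exchange factor that CaMKII binds, fell by 0.32 on the log2 scale (adjusted p = 0.0135). None of the 42 genes of the 4 lists was called in CA3 by limma, beside 0.852% of all genes. In CA3, 15 of the 42 had an unadjusted p under 0.05, beside 15.8% of all genes. Each list had a median log2 fold change between -0.05 and 0.13 in CA1, where that of all genes was 0.00.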

How the data were processed

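The deposited signal is a normalized estimated count per gene, which the authors made by alignment with STAR, quantification with Salmon and scaling between libraries. The labels name GRCm38, and the protocol describes ribosomal RNA depletion. The processing tools named for the samples include DESeq2, but the step that scaled the deposited values is not spelled out in the sources used here. Median-of-ratios factors computed from these values were 1 in all libraries. The values are not whole reads, so limma 3.58.1 (R 4.3.3) was applied to log2(value + 2), a scale that slightly understates the change of low genes. The fits used a variance trend over the mean level and robust estimation, and p-values were adjusted by Benjamini-Hochberg over all genes tested. Genes with a value of 10 or more in 2 libraries (3 for CA1) were kept. A gene was called at an adjusted p under 0.05.

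The combined comparison had subregion and training as terms and treated the 16 libraries as independent, although animals gave several each. Deviations of libraries from the same animal correlated between -0.108 and 0.092 over 14 pairs. Subregions were compared with the animal as a block, since they were dissected from the same animals. Alternatives were upper-quartile scaling, 2 filters, a pseudocount of 0.5, omission of each animal or of single libraries, blocks and covariates. Median-of-ratios scaling left each value as it was and is not counted as an alternative. Both alternatives that omit a single library were chosen after seeing the data. The members, lists and tests were chosen with earlier results of these data known. Genes named are all 6 members, at most 4 called genes of each list with the smallest adjusted p, and the 3 genes most like each member. A withheld item is not reported here. The method was tested on simulated data.

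Positions, lengths and sequences came from GENCODE M21 (GRCm38), which held 24464 of the 24972 symbols (98.0%). Merged exons of all transcripts gave the length per kilobase.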

Additional observations from a re-analysis of the deposited data

Results flagged for a closer look

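Members were examined for single libraries far from their group, by the gap to the nearest other library over the whole range, in 30 groups (6 members in 3 subregions and 2 training groups), of which chance would flag about 1 in 20. A pair of libraries stood apart. Camk2a was 49697 in untrained DG replicate 1, above the other 4 DG libraries, and Camk2b was 12020 in trained CA3 replicate 2, below the other 4 CA3 libraries. Without untrained animal 1 the training difference of Camk2a in DG was 0.02 in place of -0.05, neither of them past the threshold.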

How the results depend on the processing

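Of 504 refitted log2 fold changes of single members, 461 kept their direction and their side of the threshold, 20 lost a call, 5 gained one and 18 turned their sign. None of those that turned was past the threshold before or after. In CA1 the fits without trained animal 1 and without its CA1 library are the same fit. In CA3 this holds for untrained animal 1 and its CA3 library. The counts given here hold both of each pair. The rise of Camk2n1 in CA1 kept its call in all 14 alternatives, none of which adjusted for sex-linked transcripts or for genes at 0, since in CA1 both go with training. Its rise over all subregions kept the call in 16 of 17, the exception being the sex-linked covariate. The combined call of Camk2n2 held in 11 of 17 alternatives. The call of Camk2a in CA1 held in 11 of 14 and that of Camk2n1 in DG in 7 of 12, both with no adjustment for sex-linked transcripts or genes at 0. The cause of the losses was not tested.

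Over all subregions, 2 members were called. Without a filter on low values 1 was called, without the CA3 library of untrained animal 1 it was 1, and with the sex-linked covariate it was 0, where Camk2b turned to 0.0012. Without a filter, 1 member was called in CA1, 0 in DG and 0 in CA1 against DG. The count for CA1 against DG was also 0 in trained animals only and 0 in untrained animals only, with fewer libraries in each.

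Trained and untrained animals share only a replicate number (correlations of -0.18 to 0.119 over 7 pairs). The fit with these numbers as a replicate block called 1 member in CA3 in place of 0 (Camk2n1, 0.23, adjusted p = 0.0153), with 1160 genes called in all, and it changed no other count of members. Without the animal block, 1 member in place of 0 was called in CA1 against CA3.

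Leaving out 1 animal at a time gave 1 to 3 called members over all subregions, 1 to 2 in CA1, 0 to 1 in CA3, 0 to 1 in DG, 0 to 1 for the difference of training effects between CA1 and DG, and 0 to 1 for CA1 against DG. The member called in CA3 was Camk2n2. Small values turned their sign in these fits. Over all subregions Camk2g ran from -0.095 to 0.011. In CA1 Camk2d ran from -0.20, without trained animal 1, to 0.15, and it was -0.0094 under upper-quartile scaling. In CA3 Camk2g ran from -0.29 to 0.032, the latter without untrained animal 1, and in DG Camk2a from -0.12 to 0.018. The difference of the Camk2a effect between CA1 and CA3 ran from -0.0053 to 0.18. Camk2n1 ran from -0.026 to 0.076 in CA1 against CA3 and from -0.026 to 0.069 in CA3 against DG. It was -0.10 in CA1 against CA3 and -0.017 in CA1 against DG in untrained animals only, and in CA3 against DG it was -0.0041 in trained animals only and -0.0098 without the CA3 library of untrained animal 1. Camk2n2 in CA3 against DG was 0.035 in trained animals only.

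With the longest transcript as the length, the median level of Camk2a was 9168 per kilobase and its share 71.9%. The depth of these libraries is unknown, which limits what the low values of Camk2n2 and Camk2d can show.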
